A study of Mus musculus with 53 samples.

Results

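The 10 cathepsin genes described here are Ctsb, Ctsc, Ctsh, Ctsk, Ctsl, Ctss and Ctsz (papain-like cysteine proteases), Ctsd and Ctse (aspartic proteases) and Ctsa (a serine carboxypeptidase). They were chosen by name, as 10 of the 18193 genes that the annotation ties to a probe set of the array. Earlier results of these data were known at that choice, so the counts below describe these genes and give no independent support. All 10 passed the filter on low signals, as 10 of 15030 genes tested, and each was represented by the brightest of its probe sets (22 in all). Their transcripts were measured in female C57BL/6 mice, in lung tissue of the small lobe, with 53 Affymetrix Mouse 430 2.0 arrays in 9 groups. Smoke mice breathed 4% mainstream cigarette smoke through the nose only, for 2 hours a day on 5 days of the week, over 2, 12 or 24 weeks (6, 5 and 6 arrays). Both cessation groups (6 arrays each) had 12 weeks of smoke followed by 12 smoke-free weeks, in forced air for one (smoke-to-forced-air mice) and in room air for the other (smoke-to-room-air mice). Room air rests on the group labels alone, since the protocol names only sham exposure as what followed the smoke. Forced air mice received the sham procedure for 2, 12 or 24 weeks (6 arrays each), and the 6 arrays of untreated mice were labelled with time 0. The labels enter these weeks as the age and give no other age, and name no transgene or deletion. They do not say that each array is a separate mouse, so every n below counts arrays. For the same reason p-values measure only the spread between these arrays, which may be partly technical. The lobe was measured whole, so that more cells of a type and more RNA per cell cannot be told apart in any of the changes below.

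Cathepsins are proteases that are made as inactive precursors, carried to endosomes and lysosomes by mannose 6-phosphate receptors and activated there by acid pH and by cleavage. They break down proteins taken up by the cell, cut the invariant chain that occupies newly made MHC class II molecules, and mature other enzymes. Macrophages also release some of them, and cathepsins K, L and S can cleave elastin and collagen, the fibres that give the lung its shape. Many cystatins bind the cysteine cathepsins and block them.

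The values are MAS5 signals, brightness on a linear scale, which had been scaled to a common trimmed mean of 150 on every array. A change is a difference of log2(signal + 16), and a fold is 2 raised to that difference, which understates the ratio of low signals. A gene was called when its Benjamini-Hochberg adjusted p from limma, over all 15030 genes of a comparison, was under 0.05. The lung markers Sftpc, Scgb1a1, Pecam1 and Ager were called present on all 53 arrays, and so were the 10 cathepsin probe sets. Signals of different genes cannot be ranked against each other on this array. Between 67.5% and 76.2% of the probe sets of an array were called present. The 3 arrays under 71% were replicate 2 of the smoke 24-week group (70.6%), replicate 6 of the forced air 2-week group (69.7%) and replicate 1 of the forced air 12-week group (67.5%). Each of these 3 had the highest Ctsb, Ctsh, Ctsl and Ctss signal of its group, and the lowest Ctse signal. Replicate 2 of the smoke 24-week group and replicate 1 of the forced air 12-week group also had the highest Ctsd and Ctsz. Replicate 6 of the forced air 2-week group had the highest Ctsc, and the lowest Ctsa, Ctsk and Ctsz. Their Gapdh 3′/5′ ratios, in which a higher value means more degraded RNA or shorter cDNA, were 1.69 in smoke 24-week replicate 2, 2.08 in forced air 2-week replicate 6 and 2.42 in forced air 12-week replicate 1, and their part in the results was not tested beyond leaving them out.

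**Figure D1:**
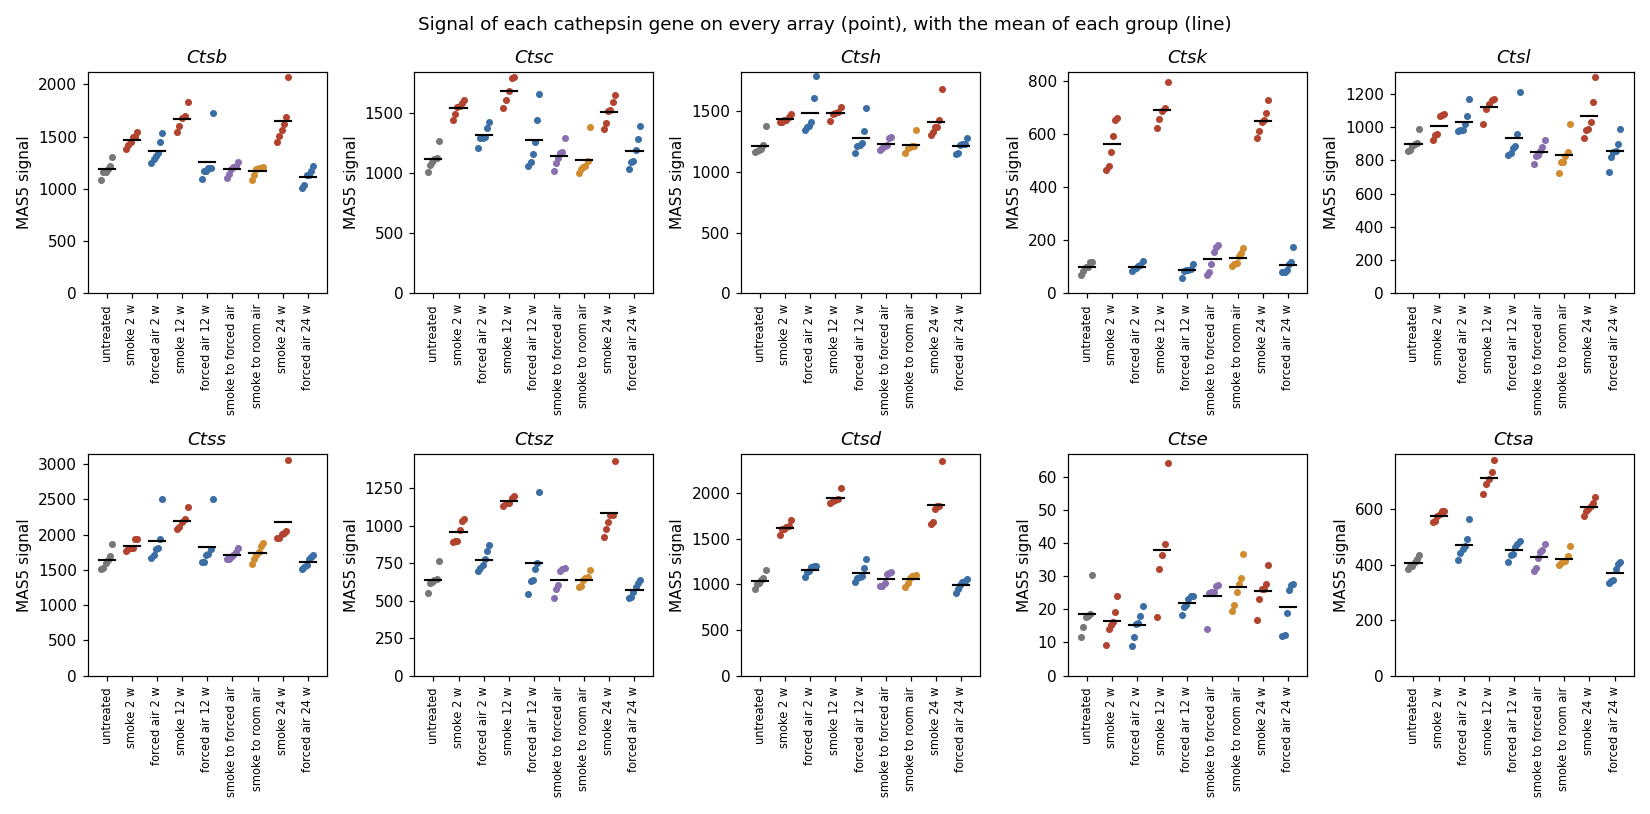
MAS5 signal (linear axis starting at 0) of the 10 cathepsin genes, 1 panel per gene. Points are single arrays of the 9 groups and lines are group means. The smoke arrays of Ctsk lie between 465 and 797, above every array of the other 6 groups (at most 182).

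Cathepsin transcripts were higher in smoke mice than in forced air mice, with more genes called at 12 and 24 weeks than at 2 weeks. At 2 weeks 3 of the 10 genes were called higher (Ctsk, Ctsd and Ctsa), against 5.40% of all genes called higher and 9.12% called either way. After 12 weeks all 10 were called higher, against 12.5% of all genes. By 24 weeks 9 were called higher, all but Ctse, against 11.1% of all genes. No cathepsin gene was called lower, against 3.72%, 10.5% and 6.68% of all genes. The median change of the 10 genes was 0.17, 0.44 and 0.48 on the log2 scale at 2, 12 and 24 weeks, beside a median over all genes within 0.02 of 0. The Gapdh 3′/5′ ratios ranged over 1.54 to 1.71 in smoke mice and 1.61 to 2.08 in forced air mice at 2 weeks. They ranged over 1.48 to 1.54 in smoke mice against 1.58 to 2.42 in forced air mice at 12 weeks, with no overlap, and over 1.41 to 1.69 in smoke mice against 1.46 to 1.53 in forced air mice at 24 weeks. With the 3′/5′ ratios as covariates the number called was 5, 9 and 9 at 2, 12 and 24 weeks, and beyond that fit their part was not tested.

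Ctsk, the collagen-degrading protease best known from osteoclasts, changed by far the most among the 10. At 2 weeks its signal had a lowest, median and highest value of 465, 563 and 658 in smoke mice, against 82.5, 97.6 and 121.9 in forced air mice. The 5 smoke arrays of 12 weeks had 622, 656, 688, 696 and 797. The 6 forced air arrays of 12 weeks had 59.5, 88.5 and 109 (lowest, median, highest). After 24 weeks the values were 586, 649 and 727 in smoke mice, against 78.6, 99.9 and 173 in forced air mice. The groups did not overlap at any time, and every smoke array was several fold above every forced air array. The log2 changes were 2.32 ± 0.15 (SE), 2.80 ± 0.16 and 2.47 ± 0.15, which are 4.99-fold, 6.94-fold and 5.52-fold (adjusted p = 1.02e-16, 2.01e-19 and 5.69e-18). By size of the rise Ctsk ranked 6th, 9th and 10th of the 15030 genes at 2, 12 and 24 weeks.

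Ctsz, or cathepsin X, which removes single amino acids at the carboxyl end, came next among the cysteine proteases. Its signal averaged 957 ± 70.5 in smoke mice and 771 ± 67.0 in forced air mice at 2 weeks (SD, n = 6 each), and each of the 6 smoke arrays exceeded each forced air array, but the adjusted p was 0.0512. After 12 weeks it was 1162 ± 28.1 in smoke mice (SD, n = 5) against 749 ± 243 in forced air mice (SD, n = 6). After 24 weeks it was 1081 ± 180 in smoke mice against 573 ± 47.9 in forced air mice (SD, n = 6 each). At 12 weeks replicate 1 of the forced air group had 1223, while the other 5 forced air arrays had at most 753. The log2 changes were 0.31, 0.67 and 0.89 at 2, 12 and 24 weeks, the last with adjusted p = 2.50e-09.

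Ctsb, an endopeptidase that can also trim dipeptides from the carboxyl end, had log2 changes of 0.11 (adjusted p = 0.376), 0.42 (1.89e-05) and 0.55 (3.17e-08). Its 24-week signals were 1446, 1595 and 2068 in smoke mice (lowest, median, highest), against 1005, 1133 and 1221 in forced air mice, with no overlap. Ctsc, the dipeptidyl peptidase that activates several granule proteases of leukocytes, had changes of 0.23, 0.41 and 0.36. At 2 weeks all 6 smoke arrays of Ctsc (1437 to 1606) lay above all 6 forced air arrays (1203 to 1424), yet its adjusted p was 0.0554. So 4 of the 10 genes, Ctsc, Ctsd, Ctsk and Ctsz, had 2-week groups without overlap, against 3.37% of all genes.

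Ctss, which cuts the invariant chain in antigen-presenting cells, was not called at 2 weeks (log2 change -0.04, adjusted p = 0.841), and was higher by 0.28 and 0.41 after 12 and 24 weeks. The call at 12 weeks (adjusted p = 0.0162) ended without replicate 5 of the smoke group (0.25, adjusted p = 0.0580) and in a fit of the compared groups alone (adjusted p = 0.0624). The 24-week signals of Ctss were 1948, 2009 and 3063 in smoke mice (lowest, median, highest), against 1511, 1609 and 1706 in forced air mice. The top value is replicate 2, and the next highest smoke array had 2044. Without the 3 arrays under 71%, the 24-week change of Ctss was 0.31 (adjusted p = 1.28e-06), and that of 12 weeks was 0.37 (3.26e-08). Ctsl, a broad endopeptidase of lysosomes, and Ctsh, an aminopeptidase that takes part in the processing of surfactant protein B in alveolar type 2 cells, had the smallest changes of the cysteine proteases at 12 and 24 weeks. Ctsl had -0.03, 0.27 and 0.30 on the log2 scale, and Ctsh had -0.04, 0.21 and 0.22, with calls at 12 and 24 weeks (adjusted p from 0.00221 to 0.00992).

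Ctsd, the main aspartic protease of lysosomes, was called at every time. Its signals were 1535, 1618 and 1710 in smoke mice at 2 weeks (lowest, median, highest), against 1083, 1171 and 1204 in forced air mice. The 12-week smoke arrays had 1894, 1913, 1920, 1931 and 2061, against 1028, 1087 and 1273 (lowest, median, highest) in forced air arrays. At 24 weeks the values were 1664, 1840 and 2355 in smoke mice and 901, 1008 and 1056 in forced air mice. The groups were apart at all 3 times, and the log2 changes were 0.48, 0.79 and 0.90 (SE 0.06 each), or 1.39-fold, 1.73-fold and 1.86-fold. Ctse, an aspartic protease of endosomes in immune and epithelial cells, was close to the dim end of the array. The 5 smoke arrays of 12 weeks had Ctse signals of 17.8, 32.2, 36.5, 39.8 and 64.2. The forced air arrays of 12 weeks had 18.4, 22.2 and 24.1 (lowest, median, highest). So 4 of 5 smoke arrays lay above every forced air array and 1 lay below every one. The 12-week call of Ctse (log2 change 0.46, adjusted p = 0.0143) ended without replicate 2 of the smoke group (0.30, adjusted p = 0.115), with the 3′/5′ ratios as covariates (0.33, adjusted p = 0.151) and in a fit of the compared groups alone (adjusted p = 0.0549). The changes of Ctse at 2 and 24 weeks were 0.05 and 0.19 (adjusted p = 0.871 and 0.348).

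Ctsa, a carboxypeptidase also called protective protein because it holds neuraminidase and beta-galactosidase stable in the lysosome, was called at every time. It averaged 577 ± 16.4 in smoke mice and 472 ± 51.3 in forced air mice at 2 weeks (SD, n = 6 each). The 12-week means were 713 ± 45.5 in smoke mice (SD, n = 5) and 452 ± 28.0 in forced air mice (SD, n = 6). The 24-week means were 609 ± 23.9 in smoke mice and 369 ± 33.5 in forced air mice (SD, n = 6 each). Its log2 changes were 0.29, 0.64 and 0.70, and smoke and forced air arrays overlapped at 2 weeks only.

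**Figure D2:**
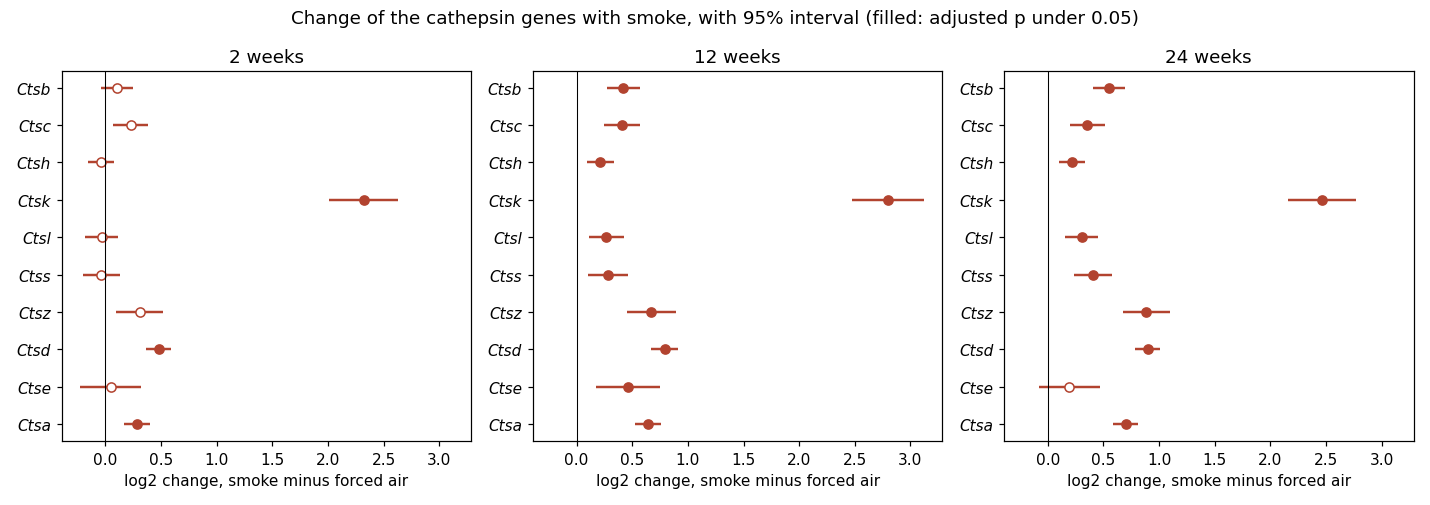
Log2 change of each cathepsin gene, smoke minus forced air, at 2, 12 and 24 weeks (horizontal axis), with the 95% interval. Filled points have an adjusted p under 0.05. Ctsk lies at 2.32, 2.80 and 2.47, and all other genes lie under 1.

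Every smoke array exceeded every forced air array for 3 of the 10 genes at 12 weeks (Ctsa, Ctsd and Ctsk), against 6.67% of all genes. Without the 3 arrays under 71%, a setting chosen after seeing the data, this held for 8 genes, the others being Ctsb, Ctsh, Ctsl, Ctss and Ctsz. At 24 weeks it held for 7 genes (Ctsa, Ctsb, Ctsd, Ctsh, Ctsk, Ctss and Ctsz), against 5.19% of all genes, and for the same 7 without them. Both shares are for all arrays, and those without the 3 arrays were not counted. Leaving out arrays can only add genes to such a count. The number called at 12 and 24 weeks was also the same without these arrays, 10 and 9, while at 2 weeks it was 5 instead of 3, with Ctsc (adjusted p = 0.0449) and Ctsz (0.0119) added.

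Whether the effect of smoke changed with time was tested as the difference between 2 effects, each smoke minus forced air. From 2 to 24 weeks the effect grew for 7 genes, against 3.85% of all genes: Ctsz by 0.58, Ctss by 0.45, Ctsb by 0.44, Ctsd by 0.42, Ctsa by 0.42, Ctsl by 0.34 and Ctsh by 0.26 on the log2 scale. All 7 had a lower forced air mean at 24 than at 2 weeks, so this growth is not a rise in smoke mice alone. The mean log2 value of Ctsz went from 9.617 to 9.198 in forced air mice and from 9.923 to 10.085 in smoke mice. That of Ctsh went from 10.542 to 10.258 in forced air mice and from 10.5 to 10.474 in smoke mice. The smoke mean was higher at 24 than at 2 weeks for all of the 7 but Ctsh. The calls of Ctsh and Ctsl (adjusted p = 0.0449 and 0.0429) were near the threshold: that of Ctsh ended under 9 of 12 alternatives and that of Ctsl under 6, and each ended without any 1 of 13 of the 24 arrays. Without the 3 arrays under 71% their adjusted p-values were 0.0968 and 0.0773, which left 5 genes, and with the other probe set of Ctsh its growth was 0.02 (adjusted p = 0.927). With the 3′/5′ ratios as covariates the calls of Ctss (adjusted p = 0.114) and Ctsz (0.0774) ended too, which left 3 genes. Ctsk did not pass that test (0.15 ± 0.22, adjusted p = 0.712), with a 95% interval of -0.29 to 0.58, nor did Ctsc (0.13) and Ctse (0.15). Between 2 and 12 weeks 2 genes passed, Ctsa (0.36) and Ctsd (0.31), against 1.48% of all genes. That number was 7 without replicate 1 of the forced air 12-week group, and it was 1 without replicate 4 or 5 of that group, replicate 5 of the smoke 12-week group, replicate 2 of the smoke 2-week group or replicate 4 of the forced air 2-week group. Between 12 and 24 weeks limma called none of the 10, against 0.0466% of all genes, and none had an unadjusted p under 0.05. These tests share arrays with the smoke comparisons and with each other.

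In the order of group means on the log2 scale, smoke at 12 weeks was the highest of the 9 groups for all 10 genes. For Ctsh it was barely so, with 10.546 against 10.542 in forced air at 2 weeks. Forced air at 2 weeks also ranked above smoke at 2 weeks for Ctsh, Ctsl and Ctss. For Ctsk the 3 smoke groups came first, then smoke-to-room-air, smoke-to-forced-air and the forced air and untreated groups, and the only gap without overlap lay between smoke at 2 weeks and the smoke-to-room-air group. Ctsd and Ctsz likewise had their only gap between smoke at 2 weeks, the lowest smoke group, and forced air at 2 weeks. Ctsa had its only gap between smoke at 12 weeks and smoke at 24 weeks. Neighbouring groups overlapped throughout the orders of Ctsb, Ctsc, Ctse, Ctsh, Ctsl and Ctss. Forced air at 24 weeks was the lowest group for Ctsa, Ctsb, Ctsd, Ctsh, Ctss and Ctsz.

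Ctsk and Ctss are next to each other among the protein-coding genes of chromosome 3, yet their changes with smoke were 2.80 and 0.28 at 12 weeks. Promoter windows from 250 bases before to 50 after the gene start were found for 7 of the 10 genes in the RefSeq table (build GRCm38.p6), with 2 windows for Ctsa, and not for Ctsb, Ctse and Ctsh. The windows were searched on both strands for 4 motifs: CACGTG, the core of the site read by TFEB and MITF, which govern lysosomal genes; the CLEAR element, its palindrome of 10 bases; GAGGAA, the core of the site of the myeloid factor PU.1; and TGANTCA, the AP-1 site. CACGTG is the middle of the CLEAR element. The windows of the neighbours Ctsk (chr3:95498960-95499259, plus strand) and Ctss (chr3:95526536-95526835, plus strand) and of Ctsd (chr7:142387778-142388077, minus strand), the gene with the largest change after Ctsk at 24 weeks, are shown 5′ to 3′, with motif matches in capitals.
Ctsk: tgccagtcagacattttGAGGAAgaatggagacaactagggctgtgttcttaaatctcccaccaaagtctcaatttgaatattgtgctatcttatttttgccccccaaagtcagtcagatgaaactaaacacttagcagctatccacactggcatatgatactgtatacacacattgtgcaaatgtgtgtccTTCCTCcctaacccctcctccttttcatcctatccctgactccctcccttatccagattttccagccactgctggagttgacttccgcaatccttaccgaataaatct
Ctss: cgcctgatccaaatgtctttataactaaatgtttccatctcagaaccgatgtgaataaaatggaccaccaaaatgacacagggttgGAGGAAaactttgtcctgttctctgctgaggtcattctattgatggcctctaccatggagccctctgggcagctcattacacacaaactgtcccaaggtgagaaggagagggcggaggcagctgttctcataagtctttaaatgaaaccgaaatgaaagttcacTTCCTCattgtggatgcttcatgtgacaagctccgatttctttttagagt
Ctsd: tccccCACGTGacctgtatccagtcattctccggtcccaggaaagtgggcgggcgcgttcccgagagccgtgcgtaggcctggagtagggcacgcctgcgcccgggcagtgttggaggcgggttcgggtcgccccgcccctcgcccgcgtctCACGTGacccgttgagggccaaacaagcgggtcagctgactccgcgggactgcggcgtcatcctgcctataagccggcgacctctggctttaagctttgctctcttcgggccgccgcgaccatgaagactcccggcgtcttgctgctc
Ctsk and Ctss each held 2 copies of GAGGAA (read as TTCCTC where it lies on the other strand) and no CACGTG, and Ctsd held 2 copies of CACGTG and no GAGGAA. Over the 7 genes with a window, CACGTG was found in 3 (Ctsa, Ctsd and Ctsl), against 7.15% of all 32851 windows. These counts are by gene, over 8 windows, while the shares are by window. For Ctsa the window at chr2:164833523-164833822 held CACGTG and the other did not. GAGGAA was found in 3 (Ctsc, Ctsk and Ctss), against 28.28% of all windows. The CLEAR element was searched only as an exact match over its full length, and sites that differ from it at any base were not counted. Neither this exact element (0.33% of all windows) nor TGANTCA (7.81%) was found in any window of the 7 genes. Whether the CACGTG sites of Ctsa, Ctsd and Ctsl are variants of the CLEAR element was not tested. Ctsz had no match to any of the 4 motifs.

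Of the 10 genes, 7 had more than 1 probe set. For Ctsb, Ctsc and Ctsz a dimmer one gave a larger change with smoke than the brightest. The Ctsb probe set 1417492_at had log2 changes of 0.50, 1.19 and 0.89 at 2, 12 and 24 weeks, beside 0.11, 0.42 and 0.55 for the brightest, 1417490_at. For Ctsc, 1437939_s_at had 0.64, 1.15 and 0.88, beside 0.23, 0.41 and 0.36 for 1416382_at. The Ctsz probe set 1417870_x_at had 0.41, 1.09 and 1.13, beside 0.31, 0.67 and 0.89 for 1417869_s_at. At 2 weeks these 3 dimmer probe sets were called and the brightest ones were not, with adjusted p-values over all kept probe sets of 1.96e-06 for Ctsb, 1.44e-05 for Ctsc and 0.00566 for Ctsz. The difference between probe sets of 1 gene was not tested. Some probe sets showed no call in any smoke comparison, namely 1458466_at of Ctsa, 1444987_at of Ctsb and 1457724_at of Ctsl (changes between -0.19 and 0.11). The Ctsh probe set 1443814_x_at had 0.16, 0.34 and 0.17, beside -0.04, 0.21 and 0.22 for 1418365_at, and both were called at 12 and 24 weeks only. The Ctse probe sets disagreed, since 1418989_at was called at 12 weeks only and 1427797_s_at at 24 weeks only (0.27, adjusted p = 0.0407). Ctsd, Ctsk and Ctss have 1 probe set each.

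**Figure D3:**
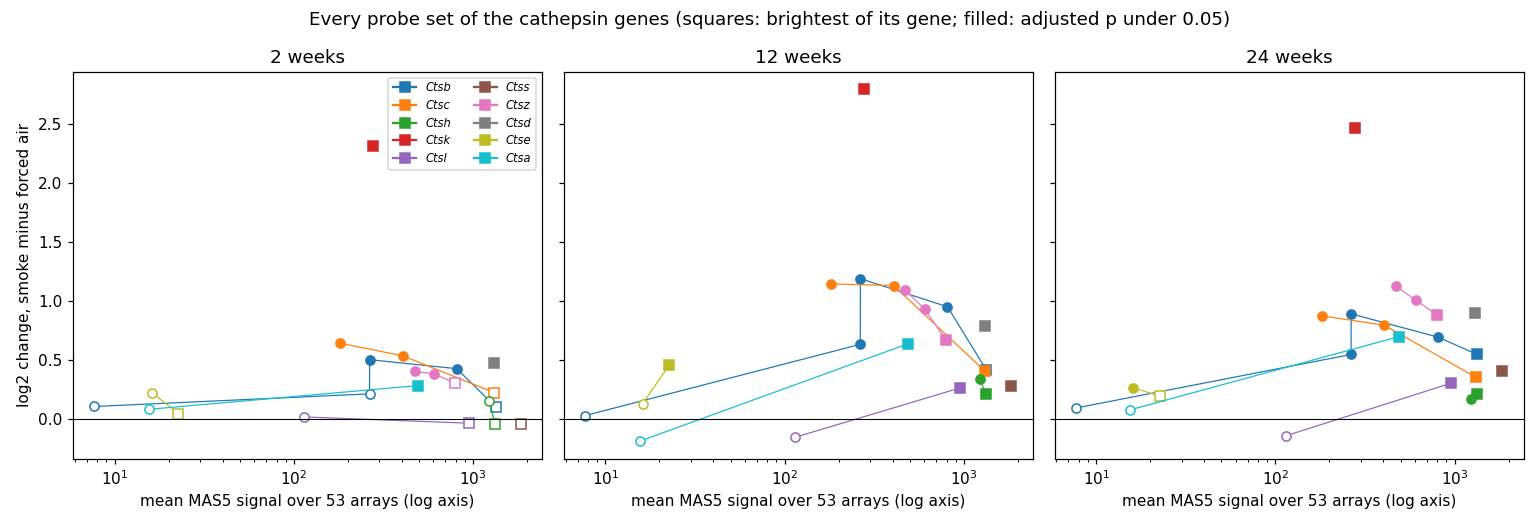
Log2 change with smoke of all 22 probe sets at 2, 12 and 24 weeks (vertical axis) against their mean signal over 53 arrays (log axis). Squares are the brightest probe set of a gene, lines join probe sets of 1 gene, and filled symbols have an adjusted p under 0.05. 1417492_at of Ctsb and the dimmer probe sets of Ctsc and Ctsz lie above the brightest one of their gene.

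After 12 weeks without smoke, cathepsin transcripts were lower than under continued smoke, and 1 of the 10 genes was called against forced air mice. Against smoke at 24 weeks, 9 of the 10 genes were called lower in smoke-to-forced-air mice, against 7.45% of all genes. The same number, again all but Ctse, was called lower in smoke-to-room-air mice, against 9.06% of all genes. Both comparisons use the same smoke arrays, so their counts are not independent. The median change of the 10 genes was -0.43 in smoke-to-forced-air mice and -0.47 in smoke-to-room-air mice, beside 0.01 and 0.00 over all genes.

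Ctsk fell to 70.1, 133 and 182 in smoke-to-forced-air mice and to 103, 127.5 and 169 in smoke-to-room-air mice (lowest, median, highest), against 586, 649 and 727 in smoke mice at 24 weeks. Neither cessation group overlapped the smoke group, and both overlapped the forced air group (78.6 to 173). Its log2 changes against smoke were -2.27 ± 0.15 and -2.19 ± 0.15, with adjusted p = 2.21e-16 and 6.26e-16. Ctsd averaged 1057 ± 74.4 in smoke-to-forced-air mice and 1056 ± 51.0 in smoke-to-room-air mice, against 1874 ± 251 in smoke mice (SD, n = 6 each), a change of -0.81 for both. Ctsz averaged 638 in both cessation groups (SD 82.4 and 41.4), against 1081 ± 180 in smoke mice, with changes of -0.74 and -0.73. The changes of Ctsa, Ctsb and Ctsc lay between -0.40 and -0.52 in the comparisons with smoke, and those of Ctsh, Ctsl and Ctss between -0.19 and -0.35. All arrays of the cessation group lay below all smoke arrays for 9 genes in smoke-to-forced-air mice, against 3.79% of all genes, and for 6 genes in smoke-to-room-air mice, against 4.48%. Ctse had changes of -0.06 and 0.04 (adjusted p = 0.866 and 0.900). Without replicate 2 of the smoke group, the call of Ctsh in smoke-to-forced-air mice (-0.14, adjusted p = 0.0838) and that of Ctss in smoke-to-room-air mice (-0.20, adjusted p = 0.0589) ended.

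Against forced air at 24 weeks, the only gene called was Ctsa. It averaged 427 ± 38.3 in smoke-to-forced-air mice and 421 ± 24.3 in smoke-to-room-air mice, against 369 ± 33.5 in forced air mice (SD, n = 6 each). The log2 changes were 0.20 (adjusted p = 0.0492, with 1.46% of all genes called higher) and 0.18 (adjusted p = 0.0203, with 9.80% called higher). In each cessation group 4 of 6 arrays lay above every forced air array. Both comparisons use the same forced air arrays, so their calls are not independent. Forced air at 24 weeks had the lowest Ctsa mean of the 9 groups, and untreated mice averaged 406 ± 19.0 (SD, n = 6). The first call ended under 5 alternatives and without replicate 1, 2, 3 or 5 of forced air or replicate 2, 4, 5 or 6 of the cessation group (adjusted p of 0.0543 to 0.204 under the alternatives and 0.0517 to 0.180 without an array). The second ended under 1 alternative and without replicate 2, 3 or 5 of forced air or replicate 4 of the cessation group (0.0592 under the alternative and 0.0555 to 0.0775 without an array). For Ctsk the change against forced air was 0.20 in smoke-to-forced-air mice, with a 95% interval of -0.11 to 0.50, and 0.28 in smoke-to-room-air mice, with an interval of -0.03 to 0.59. These intervals hold up to 1.417-fold and 1.502-fold higher Ctsk. For the other 8 genes the changes lay between -0.09 and 0.23, and none was called.

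Between smoke-to-room-air and smoke-to-forced-air mice limma called none of the 10, against 0.965% of all genes, and none had an unadjusted p under 0.05. The difference was 0.08 for Ctsk, with an interval of -0.22 to 0.39, and lay between -0.05 and 0.09 for the others. Whether the effect left after cessation was smaller than the effect of 12 weeks of smoke was tested as a difference of effects, smoke-to-forced-air minus forced air at 24 weeks against smoke minus forced air at 12 weeks. It was smaller for 6 genes, against 5.65% of all genes: Ctsk (-2.60), Ctsd (-0.70), Ctsz (-0.53), Ctsc (-0.45), Ctsa (-0.44) and Ctsb (-0.33). Without the 3 arrays under 71% the number was 9, and the share of all genes with a smaller effect was not counted in that setting.

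**Figure D4:**
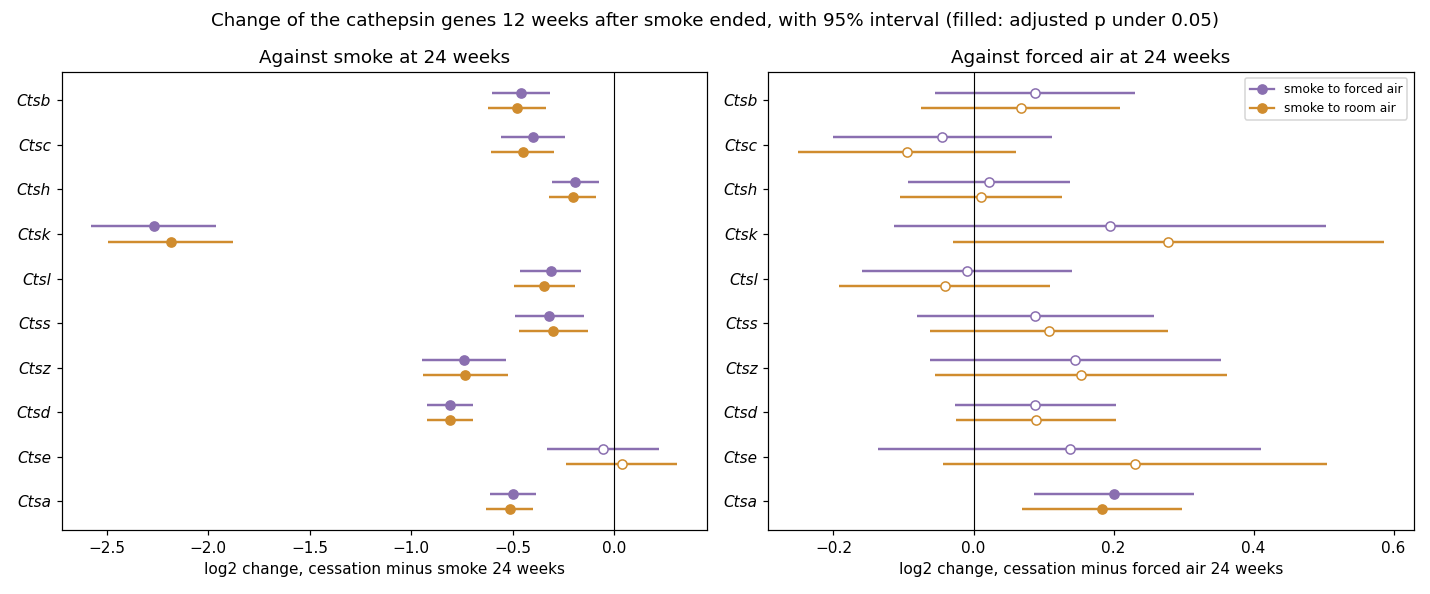
Log2 change of each cathepsin gene in both cessation groups, against smoke at 24 weeks (left) and against forced air at 24 weeks (right, on a scale of its own), with 95% intervals. Filled points have an adjusted p under 0.05. On the left 9 genes lie below 0 in both groups, and on the right Ctsa alone is filled.

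Small changes separated forced air mice at 2 weeks from untreated mice. Since untreated mice were labelled with time 0, forced air and elapsed time cannot be told apart in any comparison with them. Against untreated mice 5 genes were called higher after 2 weeks of forced air, against 10.8% of all genes: Ctsh by 0.28, Ctsc by 0.24, Ctsa by 0.21, Ctsb by 0.19 and Ctsd by 0.16 on the log2 scale. No gene had groups without overlap in that comparison (3.20% of all genes). The number called was 8 without replicate 2 of the untreated group, 3 without replicate 1, 4 or 5 of that group or replicate 6 of the forced air group, and 2 without replicate 4 of the forced air group. It was 1 with the 3′/5′ ratios as covariates. Gapdh 3′/5′ ratios had a median of 1.85 after 2 weeks of forced air, against 1.57 in untreated mice. After 12 and 24 weeks of forced air limma called none of the 10 against untreated mice, beside 5.76% and 14.1% of all genes, and 2 and 1 had an unadjusted p under 0.05. Ctsk differed from untreated mice by 0.03, -0.15 and 0.10 in forced air mice of 2, 12 and 24 weeks, with no call.

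The counts of related genes below stand beside these shares of all genes. With smoke 5.40%, 12.5% and 11.1% were called higher and 3.72%, 10.5% and 6.68% lower at 2, 12 and 24 weeks. Against smoke at 24 weeks 7.68% were called higher and 7.45% lower in smoke-to-forced-air mice, and 9.12% higher and 9.06% lower in smoke-to-room-air mice. Against forced air at 24 weeks 1.46% were called higher in smoke-to-forced-air mice, and 9.80% higher and 5.32% lower in smoke-to-room-air mice.

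Of 13 other cathepsin genes on the array 4 passed the filter on low signals, and none of the 4 was called with smoke at any time by limma, nor had any an unadjusted p under 0.05. Ctsf, Ctso and Ctsw, a cathepsin of T and NK cells, had log2 changes of -0.07, 0.10 and -0.27 at 2 weeks, of -0.09, -0.04 and 0.30 at 12 weeks, and of -0.07, -0.16 and 0.16 at 24 weeks. Ctsm, a placental cathepsin in the mouse, had mean signals between 2.57 and 3.94 in the 9 groups, and log2 changes of -0.05, 0.07 and -0.00. In smoke-to-room-air mice Ctsw was higher and Ctsf lower than in forced air mice at 24 weeks (0.52 and -0.31, adjusted p = 0.0175 and 0.00773), and Ctsf was lower than in smoke mice (-0.24).

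The cystatin family holds inhibitors of the cysteine cathepsins, and 7 of its genes were tested (Cst3, Cst7, Cst9, Cst12, Cst13, Cstb and Stfa2l1). With smoke 0 were called at 2 weeks, with 2 at an unadjusted p under 0.05, and 1 was called higher at 12 and at 24 weeks. That gene was Cstb, an inhibitor in the cytosol, with changes of 0.22 and 0.35 (adjusted p = 0.0124 and 3.31e-05). Cstb was lower than in smoke mice in both cessation groups (-0.32 after forced air and -0.29 after room air). Stfa2l1 was higher in smoke-to-room-air mice than in smoke and forced air mice (0.95 and 0.92, adjusted p = 0.0123 and 0.0183). The median change of the list with smoke was -0.10, -0.08 and -0.02, beside 0.00, -0.02 and -0.00 over all genes, which is also the background for the medians that follow.

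Among 16 genes of lysosomal sorting and activation, 3, 8 and 8 were called higher with smoke at 2, 12 and 24 weeks and none lower. Lgmn, the asparaginyl protease that trims cathepsin precursors, led with 0.29, 0.96 and 0.82. Gnptab, which makes the mannose 6-phosphate tag, changed by 0.25, 0.53 and 0.46, and Psap, the saposin precursor, by 0.21, 0.41 and 0.48. Neu1, which Ctsa protects, was called at 12 and 24 weeks (0.51 and 0.36), and so was Glb1, the beta-galactosidase of the same complex (0.39 and 0.37). In each cessation group 7 of the 16 were called lower than in smoke mice, and Lgmn changed by -0.57 after forced air and -0.63 after room air. Against forced air, 0 were called in smoke-to-forced-air mice and 1, Gnptab (0.18), in smoke-to-room-air mice. The median changes with smoke were 0.11, 0.18 and 0.21.

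Ctss works beside the class II loading genes, and 1, 4 and 7 of the 10 tested were called higher with smoke at 2, 12 and 24 weeks. Ifi30, a thiol reductase of the loading compartment, changed by 0.20, 0.52 and 0.48, and H2-Ab1, a class II chain, by 0.37 and 0.53 at 12 and 24 weeks. H2-DMa, which helps peptides exchange, was called at 24 weeks (0.50), with H2-DMb2 (0.45). The median changes with smoke were 0.07, 0.29 and 0.39. Against forced air 3 of 10 were called higher in smoke-to-forced-air mice (H2-DMa 0.49, H2-Ab1 0.30 and H2-Eb1 0.27), and 7 in smoke-to-room-air mice, with H2-Oa (0.85), H2-Ob (0.83), H2-DMa (0.71) and H2-DMb2 (0.68) in front. For Ctss the same comparisons gave 0.09 and 0.11, with no call. Against smoke 2 of 10 were called lower in smoke-to-forced-air mice, Ifi30 by -0.42 and H2-Aa by -0.17. In smoke-to-room-air mice 2 were called higher, H2-Ob (0.62) and H2-Oa (0.50), and 1 lower, Ifi30 (-0.43). The median changes against forced air were 0.28 and 0.43 in the cessation groups.

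Of 11 genes known from osteoclasts, the cells in which Ctsk digests bone collagen, 5, 6 and 6 were called higher with smoke at 2, 12 and 24 weeks and none lower. Atp6v0d2, a subunit of the proton pump, changed by 1.42, 1.63 and 1.31, and Acp5, the tartrate-resistant acid phosphatase, by 1.07, 1.57 and 1.54. Dcstamp, which takes part in cell fusion, changed by 0.92, 0.83 and 0.65, and Tcirg1, another proton pump subunit, by 0.37, 0.66 and 0.62. In smoke-to-forced-air mice 5 were called lower than in smoke mice, Acp5 by -1.36 and Atp6v0d2 by -1.30, and 1 higher, Calcr (0.35). In smoke-to-room-air mice 6 were called lower, Acp5 by -1.19 and Atp6v0d2 by -1.17, and 1 higher, Calcr (0.32). Against forced air 1 was called higher in smoke-to-forced-air mice, Calcr (0.33), and 2 in smoke-to-room-air mice, Itgb3 (0.39) and Calcr (0.30). The median changes with smoke were 0.13, 0.30 and 0.27.

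Ctsc activates several of the granule proteases of leukocytes and mast cells, of which 7 were tested. With smoke 0 were called at 2 and at 12 weeks, with 0 and 3 at an unadjusted p under 0.05. At 24 weeks 1 was called lower (Mcpt4, a mast cell protease, -0.31). In smoke-to-forced-air mice 3 were called higher than in smoke mice, Gzma (0.98), Gzmb (0.80) and Cma1 (0.42), and in smoke-to-room-air mice 1, Gzma (0.77). Against forced air 0 were called in smoke-to-forced-air mice, with 2 at an unadjusted p under 0.05, and 1 was called lower in smoke-to-room-air mice, Mcpt4 (-0.40). The median changes with smoke were 0.01, -0.15 and -0.23.

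Macrophage markers were also called in the comparisons with smoke, and their part in the cathepsin changes was not tested. Of 10 markers of monocytes and interstitial macrophages, 7, 8 and 9 were called higher with smoke at 2, 12 and 24 weeks, with Ms4a7 (1.06, 2.53 and 1.91) and Cd68 (1.07, 1.55 and 1.58) among the largest. Their summed signal ranged over 4059 to 4802 in smoke mice and 2698 to 3154 in forced air mice at 2 weeks, with no overlap. It ranged over 5728 to 6803 in smoke mice against 2784 to 3305 in forced air mice at 12 weeks, and over 5307 to 5897 in smoke mice against 2434 to 3481 in forced air mice at 24 weeks. In smoke-to-forced-air mice the sum was 2895 to 3814, and in smoke-to-room-air mice 3193 to 4484. Against smoke at 24 weeks 7 of these 10 markers were called lower in each cessation group, with 2 called higher in smoke-to-room-air mice. Against forced air at 24 weeks, where Ctsa was the 1 cathepsin gene called, 3 were called higher in smoke-to-forced-air mice and 4 in smoke-to-room-air mice. Of 10 alveolar macrophage markers 4, 4 and 6 were called higher and 0, 1 and 1 lower, with Marco in front (1.84, 1.89 and 2.67), and Cidec the one that was lower (-0.91 and -0.84). Against smoke 5 of them were called lower in each cessation group, with 2 called higher in smoke-to-forced-air mice. Against forced air 1 was called higher in each cessation group, with 1 called lower in smoke-to-room-air mice.

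The summed signal of the alveolar macrophage markers was 7447 to 7717 in smoke mice and 5955 to 7162 in forced air mice at 2 weeks. It was 7075 to 8277 in smoke mice against 5796 to 7098 in forced air mice at 12 weeks, and 6843 to 9809 in smoke mice against 5437 to 7427 in forced air mice at 24 weeks. Of 7 dendritic cell markers 4 were called higher at each time, led by Itgax (1.07, 1.56 and 1.53), which macrophages also carry. The 7 neutrophil markers gave 0 calls with smoke at each time, with 1 at an unadjusted p under 0.05 each time. Of 9 alveolar type 2 markers 0, 2 and 1 were called higher and none lower. Calls the other way, lower with smoke, were made for 3, 4 and 0 of 6 alveolar type 1 markers, 4, 7 and 1 of 8 endothelial markers, and 1, 4 and 0 of 7 club and ciliated cell markers, with none higher. Of 9 fibroblast and smooth muscle markers 1, 3 and 2 were called higher and 1, 5 and 2 lower. Of 7 T and NK cell markers and of 5 B cell markers 0, 1 and 1 were called higher and none lower, and of 3 red blood cell markers 1 was called lower, at 12 weeks. Every tested marker of these lists was called present on at least 1 array of every group.

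By their pattern over the 9 group means, Ctsk was most like Mmp12, the macrophage elastase (r = 0.995, rho = 0.983), Gpnmb, a lysosomal glycoprotein (0.995, 0.983), and Mcoln3, an endolysosomal channel (0.994, 0.867), among 1097 genes whose group means varied enough. Ctsa was nearest to Gusb (0.992), Ctsz (0.990) and Hexa (0.986), and Ctsb to Ctsz (0.993), Lgals3 (0.989) and Atp6v1c1 (0.987). Ctsz was nearest to Ctsa, Lgals3 (0.988) and Hexa (0.985), Ctss to Lgals3 (0.945), Ctsz (0.944) and Hexa (0.941), and Ctsl to Atp6v1c1 (0.964), Lgals3 (0.960) and Lrmda (0.948). Ctsd was nearest to S100a1 (0.992), Pld3 (0.989) and Hebp1 (0.988), and Ctsc to Bhlhe40 (0.977), Hebp1 (0.971) and Aldoc (0.967). Ctsh was nearest to Cks1b (0.957), Lap3 (0.943) and Atp6v1c1 (0.939). Ctse was nearest to Slfn8 (0.966), Epsti1 (0.962) and the transcript 9330175E14Rik (0.956). Only genes whose 9 group means had an SD of at least 0.25 could be named as nearest, which left out Ctsb and Ctsl. Over the group means Ctsb had an r of 0.993 with Ctsz and 0.956 with Ctss, and Ctsl had 0.943 with Ctsh. Gene means over the same 9 groups share their arrays, so these values describe likeness only.

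Over the deviations of the 53 arrays from their group means, the 45 pairs of cathepsin genes had a median r of 0.31, with a range of -0.40 to 0.81. The 14 pairs with an r over 0.5 were all among Ctsb, Ctsd, Ctsh, Ctsl, Ctss and Ctsz, for example Ctsb with Ctss (r = 0.81, rho = 0.59) and Ctsb with Ctsd (0.77, 0.68). Without the 3 arrays under 71% these values were 0.59 and 0.69, and 11 pairs had an r over 0.5. Of these 11 pairs 7 were among the 14, and the other 4 were Ctsa with Ctsb (0.525) and Ctsz (0.589) and Ctsk with Ctsd (0.549) and Ctsz (0.611). The neighbours Ctsk and Ctss had an r of 0.06. By the same deviations Ctsk was nearest to Akr1b8 (r = 0.756, rho = 0.700), Slpi, a protease inhibitor of airway secretions (0.730, 0.723), and Wfdc21 (0.706, 0.733). Ctsa was nearest to Itgb2 (0.782), Lsp1 (0.773) and Rgs10 (0.755), and Ctse to Arhgap15 (0.747), Trim59 (0.746) and Epsti1 (0.744). Ctsc was nearest to Sec11c (0.666), Ms4a6d (0.627) and Rab32 (0.626), Ctsd to Ctsb, Ccl6 (0.760) and Laptm5 (0.743), and Ctsz to Ctsb (0.770), Ndufb7 (0.744) and Clic1 (0.743). Without the 3 arrays the values were 0.690, 0.632 and 0.615 for Ctsd, and 0.640, 0.567 and 0.606 for Ctsz.

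The r values of Ctss, Ctsb, Ctsh and Ctsl were lower without the 3 arrays as well. Ctss was nearest to Rpsa (0.899), Cd74, the invariant chain (0.888), and Lcp1 (0.888), and without the 3 arrays these values were 0.696, 0.683 and 0.674. Ctsb was nearest to Pttg1 (0.856), Rplp0 (0.843) and H2-D1 (0.842), and without those arrays at 0.693, 0.670 and 0.632. Ctsh was nearest to H2az1 (0.858), Ik (0.855) and Sdc1 (0.854), which then had 0.710, 0.683 and 0.672. Ctsl was nearest to Pomp (0.873), Gas5 (0.863) and Psmc6 (0.855), which then had 0.797, 0.784 and 0.805. The deviations of 1 array are shared by all genes measured on it, and no p is given for them.

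**Figure D5:**
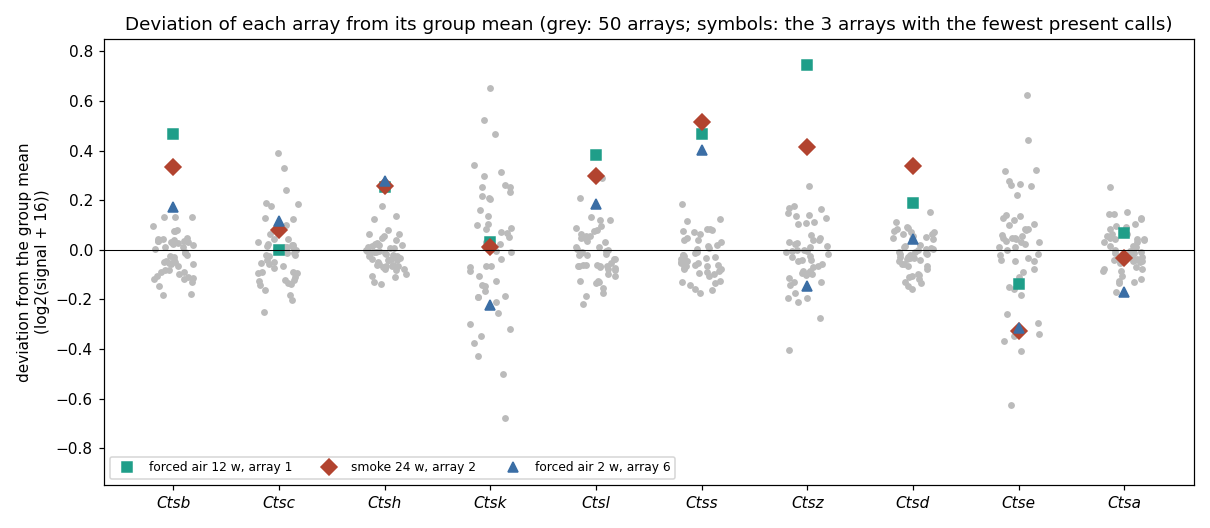
Deviation of each array from the mean of its group on the log2(signal + 16) scale, for the 10 cathepsin genes. Grey points are the other 50 arrays and coloured symbols are the 3 arrays with under 71% of probe sets called present. The 3 arrays lie high for Ctsb, Ctsh, Ctsl and Ctss, and each is the lowest of its group for Ctse. Of the 3, forced air 2-week replicate 6 is also the lowest of its group for Ctsk, Ctsa and Ctsz.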

How the data were processed

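Gene expression was measured in 53 lung samples on Affymetrix arrays, after amplification of 50 ng of total RNA, per the labels' protocols. The deposited intensity values are MAS5 signals on a linear scale, 1 value per probe set and array, made with MAS5 per the submitters' processing notes, with no version given in the sources used here. The deposited files also hold a detection p-value for each signal. The trimmed mean was 150 on every array, and the largest correlation between 2 arrays was 0.9965, so no array was taken for a copy of another. Of 45101 probe sets, 34945 had 1 gene symbol in the platform annotation, 932 had several and 9160 had none, and 64 were controls. A probe set was kept when its detection p was under 0.05 on 50% or more of the arrays in any 1 group (35652 kept), and the brightest kept one stood for its gene. Symbols were checked through 34741 Entrez identifiers, and 0 changed.

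Group differences were fitted with limma 3.58.1 (R 4.3.3) on log2(signal + 16), with 1 mean per group over all 53 arrays, empirical Bayes with a trend, two-sided tests and Benjamini-Hochberg adjustment over all 15030 genes within a comparison. Differences of effects were contrasts of the same fit. Adjusted p-values in the text come from it unless said otherwise. The fit was tested on simulated data. All 10 cathepsin genes are named, with up to 4 called genes of each related list and the 3 most alike genes by Pearson r, over group means (SD of at least 0.25) and over deviations from them. The genes and the lists were chosen with earlier results of these data known. Likeness, motifs and figures used Python 3.11.15 (pandas 2.3.3, numpy 2.4.6, scipy 1.17.1, matplotlib 3.10.9). The number of arrays limits the precision. Alternatives were a pseudocount of 1, quantile normalization, no filter on detection, the compared groups alone, every kept probe set, the probe set with the largest spread, no trend, the number in the sample title as covariate or block, 3′/5′ ratios as covariates, and leaving out arrays. What the title numbers stand for is not given in the sources used here.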

Additional observations from a re-analysis of the deposited data

Results flagged for a closer look

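In 13 of the 90 sets of arrays formed by 10 genes and 9 groups, 1 array stood far from the others of its group by Dixon's test at 95%, which chance gives in about 1 of 20 sets. Of these, 8 belong to the 3 arrays with under 71% of probe sets called present. Replicate 2 of the smoke 24-week group had signals of 2354.65 for Ctsd, 1681.69 for Ctsh, 3063.35 for Ctss and 1430.16 for Ctsz, each the highest of its group. Replicate 1 of the forced air 12-week group was highest with 1727.32 for Ctsb, 1213.01 for Ctsl and 2501.0 for Ctss, and replicate 6 of the forced air 2-week group with 2498.96 for Ctss. Replicate 4 of the smoke-to-room-air group was highest for Ctsc (1382.12) and Ctsh (1339.41). The others were Ctsd in replicate 5 of the smoke 12-week group (2061.22, highest), Ctsh in replicate 2 of the untreated group (1372.71, highest) and Ctse in replicate 4 of the smoke-to-forced-air group (13.93, lowest).

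A test of the difference between effects passed 15 times. From 2 to 12 weeks the effect of smoke grew by 0.3555 for Ctsa and 0.3133 for Ctsd on the log2 scale. From 2 to 24 weeks it grew by 0.4156 for Ctsa, 0.4432 for Ctsb, 0.4208 for Ctsd, 0.2574 for Ctsh, 0.3383 for Ctsl, 0.4458 for Ctss and 0.5802 for Ctsz. The effect left in smoke-to-forced-air mice differed from that of 12 weeks of smoke by -0.4402 for Ctsa, -0.3305 for Ctsb, -0.453 for Ctsc, -0.7025 for Ctsd, -2.6008 for Ctsk and -0.5263 for Ctsz.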

How the results depend on the processing

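The number of cathepsin genes called with smoke stayed at 8 to 10 at 12 weeks and at 9 at 24 weeks under every alternative, and at 9 to 10 and 9 when 1 array was left out. At 2 weeks, where it was 3, it was 6 with quantile normalization or the probe set of largest spread, and 5 with the compared groups alone, with 3′/5′ ratios as covariates, without the 2 arrays of Gapdh ratio over 2 or without the 3 arrays under 71% present, and 3 to 4 with 1 array left out. The setting without the 3 arrays was chosen after seeing the data. Against continued smoke the count was 9 under every alternative in both cessation groups, and 8 to 9 with 1 array left out. Against forced air, the 1 call in smoke-to-forced-air mice was 0 with no detection filter, the compared groups alone, all kept probe sets, the probe set of largest spread or no trend, and 0 to 1 with 1 array left out. The 1 call in smoke-to-room-air mice was 0 with the compared groups alone, and 0 to 1 with 1 array left out. For forced air at 2 weeks against untreated mice the count of 5 was 3 with quantile normalization or the probe set of largest spread and 1 with 3′/5′ ratios, and 2 to 8 with 1 array left out. With the probe set of largest spread Ctsb had -0.10 there (adjusted p = 0.344), the opposite sign. For forced air at 24 weeks against untreated mice the count of 0 was 1 without replicate 6 of forced air (Ctsa, -0.16, adjusted p = 0.0491), and 0 to 1 over all arrays left out. The growth between 2 and 12 weeks, passed by 2 genes, was passed by 5 with quantile normalization, 4 with the probe set of largest spread, and 7 with 3′/5′ ratios, without the arrays of Gapdh ratio over 2 or without the 3 arrays, and by 1 to 7 with 1 array left out. The growth between 2 and 24 weeks, passed by 7 genes, was passed by 3 with 3′/5′ ratios and by 5 to 7 with 1 array left out; Ctsh was lost under 9 and Ctsl under 6 of the 12 alternatives. The smaller effect after cessation was passed by 4 to 9 genes under the alternatives and 5 to 8 with 1 array left out. The causes of these moves were not tested.

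Over all genes, 3′/5′ ratios as covariates gave 626 calls instead of 1371 for smoke at 2 weeks, 1401 instead of 3491 and 505 instead of 866 for forced air at 2 and 12 weeks against untreated mice, and 750 instead of 331 and 263 instead of 964 for the growth of the effect to 12 and 24 weeks. The compared groups alone gave 17 instead of 298 calls for smoke-to-forced-air against forced air, and 276 instead of 866 and 1109 instead of 2120 for forced air at 12 and 24 weeks against untreated mice. Title number ranges as a block gave 587 instead of 298 for smoke-to-forced-air against forced air, 1.79 times as many between the cessation groups, 1342 instead of 866 for forced air at 12 weeks, and 564 instead of 331 for the growth to 12 weeks. For that growth, quantile normalization gave 505, and leaving out the arrays of Gapdh ratio over 2 or the 3 arrays gave 559 and 575. For the growth to 24 weeks, 964 calls, quantile normalization gave 1497 and the title number as covariate 533. Between 12 and 24 weeks 7 calls became 1 to 4 under 8 alternatives.

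Of the log2 changes of single genes, 1699 kept their call or lack of one under the alternatives, 58 passed the threshold anew, 42 no longer passed and 1 that was called turned its sign. With 1 array left out these numbers were 2159, 16, 65 and 0. Changes that were not called turned their sign 63 times under the alternatives and 56 times with 1 array left out. No paired analysis was possible because the labels carry no replicate numbers, and those used here were given in accession order. Ctse lay near the dim end of the array, which limits what can be seen of it.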
